A study of Mus musculus with 12 samples.

Results

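The 42 genes described here encode the kinases, checkpoint proteins, kinetochore subunits, spindle motors and chromosome proteins of G2 phase and mitosis. They were chosen by name, as a list of known mitosis and G2/M genes, with earlier results of these data known. The source was a table of 32721 genes from poly-A RNA sequencing in mouse embryonic fibroblasts. The cells came from 1 line with floxed Vps15 alleles (Vps15f/f), so every group carried these alleles. Pik3r4 encodes Vps15, the subunit that holds and regulates the class 3 PI3K Vps34 in autophagy and endosomal sorting. The 4 groups of 3 libraries were Vps15KO in EBSS, WT in EBSS, Vps15KO in basal medium and WT in basal medium. Vps15KO cells had received adeno-CRE, a virus that carries the recombinase excising floxed DNA, and WT cells adeno-GFP, both 5 days before sampling. The library names read pLEX_CRE and pLEX_GFP, and no label explains pLEX. EBSS is Earle's balanced salt solution, which has no amino acids or serum, and was applied for 2 h. Cells were kept in DMEM with 4.5 g/L glucose and 10% serum, and used at 90% confluence. No label says that the replicates were separate cultures, so p-values measure the spread between these libraries, which may be technical.

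Cells that pass through G2 build up cyclin B and its partner kinase CDK1, whose activation starts mitosis. The spindle checkpoint then holds back the anaphase-promoting complex until every kinetochore is attached, and separase, freed by the loss of securin, parts the sister chromatids. Most genes of this program share a switch: the MuvB complex represses them in resting cells through a promoter element called the CHR (cell cycle genes homology region), and with B-Myb and FOXM1 activates them in cycling cells, while the factor NF-Y binds CCAAT boxes close by. Fibroblasts in culture express the program only while they proliferate.

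Each library held 21278921 to 21698584 reads in genes. All carry the same batch label. The first principal component took 47.6% of the variance of the genes tested and the second 39.0%. In read counts WT basal replicate 2 differed from its fellow replicates by a chi-square per gene of at least 19.1 (3.03 between the other two), and WT EBSS replicate 1 by 7.73 and 11.1 (3.65 between the other two). Pik3r4 had 632 ± 35.9 normalized counts in Vps15KO EBSS and 895 ± 62.7 in WT EBSS libraries, and 658 ± 36.7 in Vps15KO basal and 875 ± 10.3 in WT basal libraries (mean ± SD, n = 3). The reads cover the whole gene, so they give no estimate of how many cells had recombined. A normalized count is the number of reads divided by the library's size factor. Every fibroblast marker tested was lower in Vps15KO than in WT cells in basal medium (8 of 8), and 7 of 8 were lower in EBSS. Of all genes tested, 29.2% were lower in Vps15KO in basal medium and 27.8% in EBSS. The summed level of the 9 listed fibroblast markers was 283010 to 296432 in Vps15KO EBSS and 509374 to 544731 in WT EBSS libraries, and 284650 to 287881 in Vps15KO basal and 571792 to 599214 in WT basal libraries. The 6 macrophage markers summed to 2637 to 3309 in Vps15KO EBSS and 802 to 897 in WT EBSS libraries, and to 2920 to 3799 in Vps15KO basal and 865 to 897 in WT basal libraries. Nearly all of this was Cd68, which encodes a lysosomal membrane protein, since Ptprc, Adgre1, Lyz2 and Itgam had means of at most 1.34 normalized counts in every group. Epithelial markers summed to at most 33.2 and endothelial markers to at most 25.7 in any library. The muscle and neural markers summed to 447 to 491 in Vps15KO EBSS and 764 to 943.0 in WT EBSS libraries, and to 568 to 602 in Vps15KO basal and 424 to 590 in WT basal libraries, with Myog at 0 throughout. The part of these differences in the results on the mitosis genes was not tested.

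The promoters of the mitosis genes show which elements these genes have in common. RefSeq promoters (GRCm38.p6, the patched form of mm10) from 250 bases before to 50 after the annotated start were found for 34 of the 42 genes, and not for Ccna2, Cdc25c, Foxm1, Aurkb, Incenp, Tpx2, Kif20a and Smc4. The last 150 bases before the start are printed for 6 genes of different roles: Cdk1, the mitotic kinase; Ccnb1, its cyclin B1 partner, shown because no CHR was matched in it; Cdc20 and Ube2c, which work with the anaphase-promoting complex; Kif11, a spindle motor; and Top2a, the topoisomerase that untangles chromosomes. Capitals mark matches to CHR (TTTGAA or TTCGAA) and to the CCAAT box (CCAAT), on either strand, so that TTCAAA and ATTGG are matches on the other strand. The stretches lie at chr10:69352913-69353062 for Cdk1, chr13:100786487-100786636 for Ccnb1, chr4:118437344-118437493 for Cdc20 and chr11:99024190-99024339 for Top2a, all on the minus strand, and at chr2:164769779-164769928 for Ube2c and chr19:37376232-37376381 for Kif11 on the plus strand.
Cdk1: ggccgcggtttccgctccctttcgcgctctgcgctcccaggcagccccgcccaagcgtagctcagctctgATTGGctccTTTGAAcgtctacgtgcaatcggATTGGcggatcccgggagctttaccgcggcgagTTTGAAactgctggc
Ccnb1: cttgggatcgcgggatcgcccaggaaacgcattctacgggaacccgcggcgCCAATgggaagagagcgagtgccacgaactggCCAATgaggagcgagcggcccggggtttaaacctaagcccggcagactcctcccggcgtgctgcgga
Cdc20: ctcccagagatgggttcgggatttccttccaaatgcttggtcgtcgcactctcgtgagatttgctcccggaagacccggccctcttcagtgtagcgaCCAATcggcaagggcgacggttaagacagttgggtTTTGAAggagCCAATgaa
Ube2c: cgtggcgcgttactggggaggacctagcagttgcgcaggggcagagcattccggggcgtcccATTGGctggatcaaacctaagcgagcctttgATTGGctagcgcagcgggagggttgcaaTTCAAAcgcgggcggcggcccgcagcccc
Kif11: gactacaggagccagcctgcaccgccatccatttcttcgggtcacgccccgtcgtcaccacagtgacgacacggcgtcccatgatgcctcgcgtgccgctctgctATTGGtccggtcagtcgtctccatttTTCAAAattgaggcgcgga
Top2a: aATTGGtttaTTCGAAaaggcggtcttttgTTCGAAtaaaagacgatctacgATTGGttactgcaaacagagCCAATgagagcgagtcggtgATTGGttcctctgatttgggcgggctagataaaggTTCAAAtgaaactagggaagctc
In the Cdk1, Cdc20, Ube2c, Kif11 and Top2a stretches a CHR match stands close to the start, with at least 1 CCAAT box before it, and no CHR match overlaps a CCAAT box in any of the 6. The first base of that match lies 15 bases before the start in Cdk1, 18 in Cdc20, 29 in Ube2c, 19 in Kif11 and 23 in Top2a. In Ccnb1 there are 2 CCAAT boxes 32 bases apart. After them stands tttaaa, which was not among the CHR forms searched. A gene without a match, such as Ccnb1, may therefore still carry another form of the element.

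CHR matches were present in 26 of the 34 mitosis promoters (76.5%), against 13.9% of the 10879 promoters of all genes tested and 19.4% of all 27025 promoters of the same length. The genes with no match to the forms searched were Ccnb1, Nek2, Mad2l1, Pttg1, Cenpe, Nuf2, Birc5 and Ncaph. The windows of Pttg1, Kif2c, Cdc25b and Aurka lay wholly inside the annotated bounds of these genes, so sequence before the outermost start was not searched there. Of these genes Pttg1 had no match and the others had a match. A CHR match starting between 60 bases before the start and the end of the window was found in 24 of 34 (70.6%), against 3.80% of the genes tested and 5.86% of all promoters. CCAAT boxes were present in 26 of 34 (76.5%), against 38.9% of the genes tested and 37.9% of all promoters. Both elements stood in 23 of 34 (67.6%), against 5.87% of the genes tested and 7.70% of all promoters. Of 27 pairs of neighbouring CCAAT boxes in the mitosis promoters, 8 lay 31 to 34 bases apart, in 7 genes. This spacing was not counted in other promoters, so whether it is unusual was not tested. The E2F motif of S phase genes, searched as TTTNNCGC with each N a C or a G, on either strand, was present in 2 of the 34, Cdk1 and Ncapg (5.88%, against 4.04% of the genes tested and 2.32% of all promoters), and is left in lower case in Cdk1. Among 37 promoters of DNA replication and S phase genes the E2F motif was matched in 32.4% and CHR in 21.6%. These are matches of letters and show no binding.

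**Figure D1:**
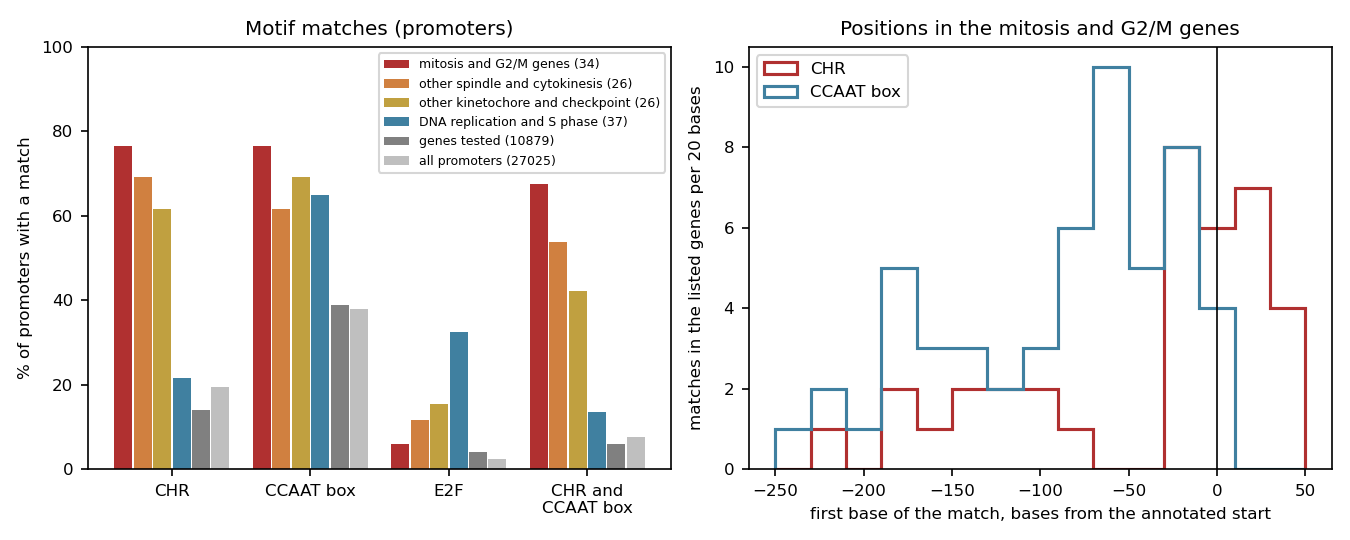
Left, the percentage of promoters with at least 1 match to each motif, for the mitosis and G2/M genes, 3 other gene lists, the genes tested and all promoters (number of promoters in brackets). Right, the position of CHR and CCAAT matches in the 34 mitosis promoters, as the distance in bases of the first base of the match from the annotated start; CHR is matched in 76.5% of the mitosis promoters and 13.9% of the promoters of genes tested, and most CHR matches stand near the start.

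All 42 mitosis and G2/M genes were higher in Vps15KO than in WT cells, in EBSS and in basal medium alike. In EBSS the median log2 difference over the 42 was 0.87, from 0.34 for Foxm1 to 1.59 for Cdc25c, and 19 genes had at least a 2-fold higher mean. In basal medium the median was 1.0, from 0.41 for Pttg1 to 1.62 for Cdc25c, and 26 genes had at least a 2-fold higher mean. Ratios of mean normalized counts, Vps15KO over WT, ran from 1.28 to 3.44 in EBSS (median 1.95) and from 1.33 to 3.59 in basal medium (median 2.12). With limma's moderated test, adjusted over the 14279 genes tested, adjusted p was at most 0.00599 in EBSS and at most 0.000505 in basal medium. Of all genes tested, 57.2% were called (adjusted p under 0.05) in EBSS, 29.4% as higher and 27.8% as lower in Vps15KO. In basal medium 58.5% were called, 29.3% as higher and 29.2% as lower. The median over all genes tested was -0.00 in EBSS and -0.01 in basal medium. A difference in these bulk libraries may come from more cells in G2 and mitosis or from more of the RNA per cell, which cannot be told apart. All Vps15KO cells had received adeno-CRE and all WT cells adeno-GFP. Loss of Vps15 and exposure to the recombinase or its virus therefore cannot be told apart either. All 42 genes passed the filter on low values, and their lowest value in any library was 58.2 normalized counts, for Kif20a in WT basal replicate 2.

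In EBSS every Vps15KO library was above every WT library for all 42 genes, as for 33.8% of the genes tested, while the groups did not overlap in either direction for 66.3%. In basal medium this held likewise for all 42 genes, as for 30.5% of the genes tested, with no overlap in either direction for 61.7%. Taking both media together, all 6 Vps15KO libraries lay above all 6 WT libraries for 35 of the 42 genes (13.0% of the genes tested). The exceptions were Cdk1, Foxm1, Pttg1, Nuf2, Spc25, Birc5 and Smc2. Even the Vps15KO libraries in EBSS were all above the WT libraries in basal medium for 37 of 42 genes, as for 37.6% of the genes tested, all but Cdk1, Pttg1, Nuf2, Spc25 and Birc5. The 42 genes together took 13.8 ± 0.225 of every 10000 reads in Vps15KO EBSS and 7.14 ± 0.602 in WT EBSS libraries, and 16.2 ± 2.35 in Vps15KO basal and 7.98 ± 0.480 in WT basal libraries (SD, n = 3).

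**Figure D2:**
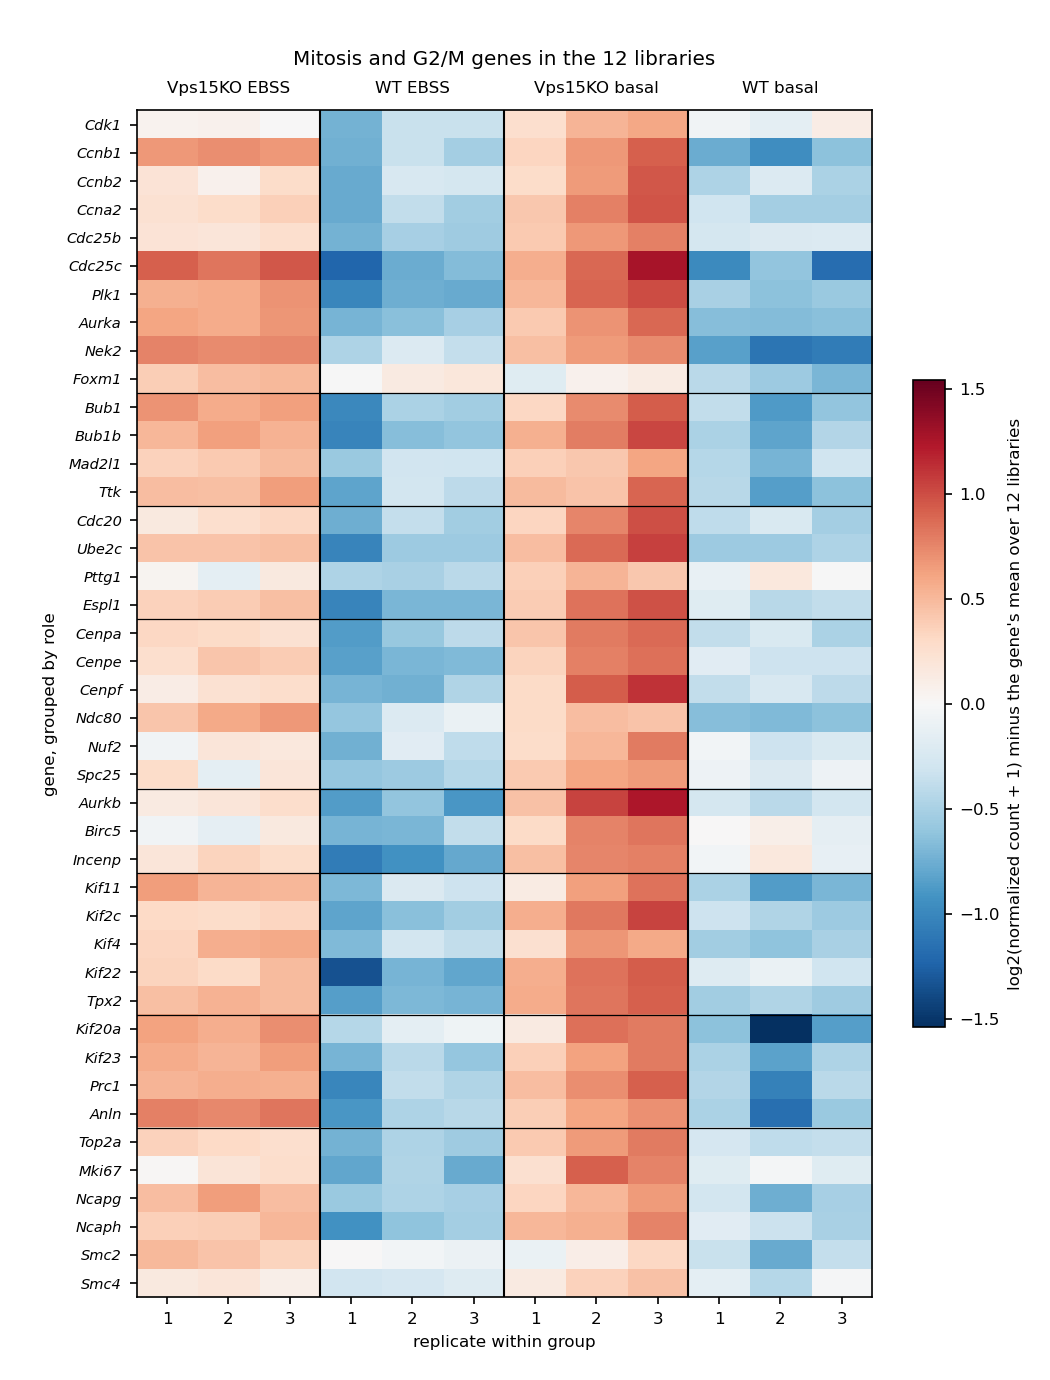
Level of each of the 42 genes in each library, as log2(normalized count + 1) minus the gene's mean over the 12 libraries, with genes grouped by role between the horizontal lines. The Vps15KO columns are above the gene means for nearly all genes and the WT columns below, and Vps15KO basal replicate 1 is paler than replicates 2 and 3.

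Within a library most of these genes shifted the same way, so that replicates of a group lay apart. In Vps15KO basal replicate 1 was the lowest of the 3 libraries for 41 of the 42 genes, as for 36.7% of the genes tested, and replicate 3 the highest for 37, as for 33.9%. The summed normalized counts of the 42 genes were 28812, 35400.3 and 38458 in replicates 1 to 3 of Vps15KO basal. In WT EBSS replicate 1 was the lowest for 38 of 42 genes, as for 36.7% of the genes tested, with a sum of 14062, against 16576 and 16492 in replicates 2 and 3. The other groups were closer, at 28984, 29244 and 29972 in Vps15KO EBSS and 17789, 16735 and 17536 in WT basal libraries. The median coefficient of variation of the 42 genes was 4.89% in Vps15KO EBSS and 13.2% in WT EBSS, and 16.2% in Vps15KO basal and 9.72% in WT basal libraries. Over all genes tested it was 5.83% in Vps15KO EBSS and 6.62% in WT EBSS, and 6.18% in Vps15KO basal and 10.4% in WT basal libraries. No library left out, nor any other processing tried, changed the call of any of the 42 genes between genotypes.

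The genes of mitotic entry were all higher in Vps15KO, by 0.34 to 1.59 on the log2 scale in EBSS and 0.48 to 1.62 in basal medium (10 of 10 called in each). Cdk1 encodes the kinase that starts mitosis. In EBSS it had 787, 793 and 763 normalized counts in Vps15KO and 456, 594 and 594 in WT libraries. In basal medium it had 906, 1092 and 1146 in Vps15KO and 732, 679.6 and 819.7 in WT libraries. Within each medium the groups did not overlap, while Vps15KO EBSS replicates 1 to 3 all lay within the range of WT basal. Cdk1 was higher by 0.50 ± 0.10 in EBSS (SE, adjusted p = 0.000331) and 0.48 ± 0.10 in basal medium (adjusted p = 0.000505), one of the smallest differences among the 42 genes. Cyclins of the B and A types bind this kinase. Ccnb1, which encodes cyclin B1, had 1099, 1138 and 1103 normalized counts in Vps15KO EBSS and 414, 545 and 484 in WT EBSS libraries. The same gene had 874, 1107 and 1309 in Vps15KO basal and 408, 357 and 447 in WT basal libraries. All 6 Vps15KO libraries were above all 6 WT libraries, with log2 differences of 1.17 ± 0.12 in EBSS (adjusted p = 1.10e-07) and 1.37 ± 0.12 in basal medium (adjusted p = 1.62e-08). Ccnb2 was higher by 0.56 in EBSS and 0.94 in basal medium, and Ccna2, cyclin A2, by 0.82 and 1.13.

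Cdc25c and Cdc25b encode phosphatases that activate CDK1. Cdc25c had the largest difference of all 42 genes in both media. It had 395, 369.8 and 407 normalized counts in Vps15KO EBSS and 88.6, 122 and 130.5 in WT EBSS libraries. In basal medium it had 309, 385 and 504 in Vps15KO and 105, 137 and 92.0 in WT libraries. The lowest Vps15KO library held more than 2 times the highest WT library, and the log2 differences were 1.59 ± 0.15 in EBSS (adjusted p = 5.08e-08) and 1.62 ± 0.15 in basal medium (adjusted p = 4.39e-08). Cdc25b was higher by 0.79 in EBSS and 0.83 in basal medium.

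Among the mitotic kinases, Plk1, which drives centrosome maturation and mitotic exit, had 499.5, 507 and 551 normalized counts in Vps15KO EBSS and 169, 202 and 199 in WT EBSS libraries. It had 485, 634 and 682 in Vps15KO basal and 242, 220.2 and 228 in WT basal libraries. No Vps15KO library came near a WT library, and the differences were 1.33 ± 0.10 in EBSS (adjusted p = 4.21e-09) and 1.28 ± 0.10 in basal medium (adjusted p = 8.12e-09). Aurka, a centrosome kinase, was higher by 1.18 in EBSS and 1.25 in basal medium. Nek2, which separates the centrosomes, was higher by 1.03 ± 0.09 in EBSS and 1.5 ± 0.09 in basal medium, the second largest difference there.

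The 4 spindle checkpoint genes were higher in Vps15KO by 0.76 to 1.24 in EBSS and 0.90 to 1.30 in basal medium. Bub1, a checkpoint kinase at the kinetochore, had 355, 326 and 341 normalized counts in Vps15KO EBSS and 109.7, 157 and 152 in WT EBSS libraries. In basal medium it had 275, 365 and 419.7 in Vps15KO and 169, 119.6 and 144 in WT libraries. All Vps15KO libraries were above all WT libraries, and an EBSS effect was called in neither genotype. The log2 differences were 1.16 ± 0.14 in EBSS (adjusted p = 1.03e-06) and 1.14 ± 0.14 in basal medium (adjusted p = 1.30e-06). Bub1b, whose product inhibits Cdc20, differed by 1.24 in EBSS and 1.30 in basal medium. Mad2l1 (Mad2) differed by 0.76 and 0.90, and Ttk, the Mps1 kinase, by 0.85 and 1.03, in EBSS and basal medium.

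The genes of anaphase onset were higher by 0.47 to 1.11 in EBSS and 0.41 to 1.29 in basal medium (4 of 4). Cdc20, the activator of the anaphase-promoting complex, had 557, 603 and 627 normalized counts in Vps15KO EBSS and 299, 389.7 and 348 in WT EBSS libraries. It had 636, 845 and 1000.2 in Vps15KO basal and 385, 429 and 349.9 in WT basal libraries. The groups were apart in both media, by 0.75 ± 0.12 in EBSS (adjusted p = 5.03e-05) and 1.02 ± 0.12 in basal medium (adjusted p = 1.44e-06). Ube2c, the ubiquitin-conjugating enzyme of the complex, differed by 1.11 in EBSS and 1.29 in basal medium. Espl1, separase, differed by 1.08 in EBSS and 0.98 in basal medium. Pttg1, securin, which holds separase inactive, differed by only 0.47 and 0.41. Per kilobase of transcript Pttg1 had the highest level of the 42 genes, with 1173 normalized counts per kilobase in Vps15KO basal and 879 in WT basal libraries. Cenpf had the lowest, with 37.8 in Vps15KO basal and 16.8 in WT basal libraries.

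Centromere and kinetochore genes were higher by 0.45 to 1.0 in EBSS and 0.61 to 1.03 in basal medium (6 of 6). Cenpf, a large protein of the outer kinetochore, had 259, 279 and 286 normalized counts in Vps15KO EBSS and 144, 142 and 172 in WT EBSS libraries. In basal medium it had 293, 454 and 516 in Vps15KO and 182, 200.1 and 179.9 in WT libraries. The Vps15KO basal libraries were spread widely but all lay above WT, with differences of 0.75 ± 0.14 in EBSS (adjusted p = 0.000136) and 1.03 ± 0.14 in basal medium (adjusted p = 4.47e-06). Cenpa, the histone variant that marks centromeres, differed by 0.86 in EBSS and 1.02 in basal medium, and Cenpe, a kinetochore motor, by 1.0 and 0.86. Ndc80, Nuf2 and Spc25 encode subunits of the Ndc80 complex, which grips microtubule ends. Ndc80 differed by 0.77 in EBSS and 0.93 in basal medium, Nuf2 by 0.45 and 0.63, and Spc25 by 0.56 and 0.61.

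The chromosomal passenger complex corrects faulty attachments. Its 3 genes among the 42 were higher by 0.53 to 1.14 in EBSS and 0.60 to 1.16 in basal medium. Aurkb, its kinase, differed by 0.90 in EBSS and 1.16 in basal medium, Birc5 (survivin) by 0.53 and 0.60, and Incenp, the scaffold, by 1.14 and 0.64. The 5 genes of spindle motors and assembly were higher by 0.85 to 1.23 in EBSS and 0.91 to 1.26 in basal medium. Kif11, the motor that pushes the spindle poles apart, had 491, 452 and 446 normalized counts in Vps15KO EBSS and 194, 268 and 252 in WT EBSS libraries. It had 343, 485 and 562 in Vps15KO basal and 223, 173 and 193 in WT basal libraries. All Vps15KO libraries were above all WT libraries, by 0.90 ± 0.14 in EBSS (adjusted p = 2.21e-05) and 1.11 ± 0.14 in basal medium (adjusted p = 1.88e-06). Tpx2, the activator of Aurora A, differed by 1.23 ± 0.08 in EBSS and 1.26 ± 0.08 in basal medium, with the smallest standard errors of the 42 genes. Kif2c, a microtubule depolymerase, differed by 0.86 in EBSS and 1.14 in basal medium. The chromosome-bound motors Kif4 and Kif22 differed by 0.85 and 1.20 in EBSS and by 0.95 and 0.91 in basal medium.

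Central spindle and cytokinesis genes were higher by 0.75 to 1.34 in EBSS and 1.11 to 1.36 in basal medium (4 of 4). Anln encodes anillin, which organizes the contractile ring. It had 1733, 1690.4 and 1794 normalized counts in Vps15KO EBSS and 543, 732 and 752 in WT EBSS libraries. In basal medium it had 1324, 1548 and 1658 in Vps15KO and 725, 453 and 685 in WT libraries. WT EBSS replicate 1 and WT basal replicate 2 were low within their groups, and all Vps15KO libraries were far above both. The differences were 1.34 ± 0.14 in EBSS (adjusted p = 1.44e-07) and 1.27 ± 0.14 in basal medium (adjusted p = 3.30e-07). Prc1, which bundles midzone microtubules, differed by 1.11 in EBSS and 1.29 in basal medium, and the midzone motors Kif23 and Kif20a by 1.07 and 0.75 in EBSS and 1.11 and 1.36 in basal medium.

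Genes of chromosome structure were higher by 0.39 to 1.02 in EBSS and 0.51 to 0.93 in basal medium (6 of 6). Top2a had 1341, 1301 and 1255 normalized counts in Vps15KO EBSS and 632, 751 and 718 in WT EBSS libraries. It had 1382, 1649.6 and 1818 in Vps15KO basal and 874, 799 and 813 in WT basal libraries. All Vps15KO libraries were above all WT libraries, by 0.87 ± 0.09 in EBSS (adjusted p = 9.92e-08) and 0.93 ± 0.09 in basal medium (adjusted p = 4.35e-08). Mki67 encodes the proliferation antigen Ki-67, which coats mitotic chromosomes. It had 620.5, 704 and 737 normalized counts in Vps15KO EBSS and 350.2, 443 and 358 in WT EBSS libraries. In basal medium it had 726, 1159 and 1039 in Vps15KO and 537, 600.2 and 539 in WT libraries. The groups of each medium were apart, by 0.80 ± 0.13 in EBSS (adjusted p = 2.78e-05) and 0.75 ± 0.13 in basal medium (adjusted p = 5.90e-05). The condensin I subunits Ncapg and Ncaph differed by 0.97 and 1.02 in EBSS, and the core subunits Smc2 and Smc4, which are shared with condensin II, by 0.45 and 0.39. In basal medium Ncapg and Ncaph differed by 0.93 and 0.88, and Smc2 and Smc4 by 0.57 and 0.51.

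**Figure D3:**
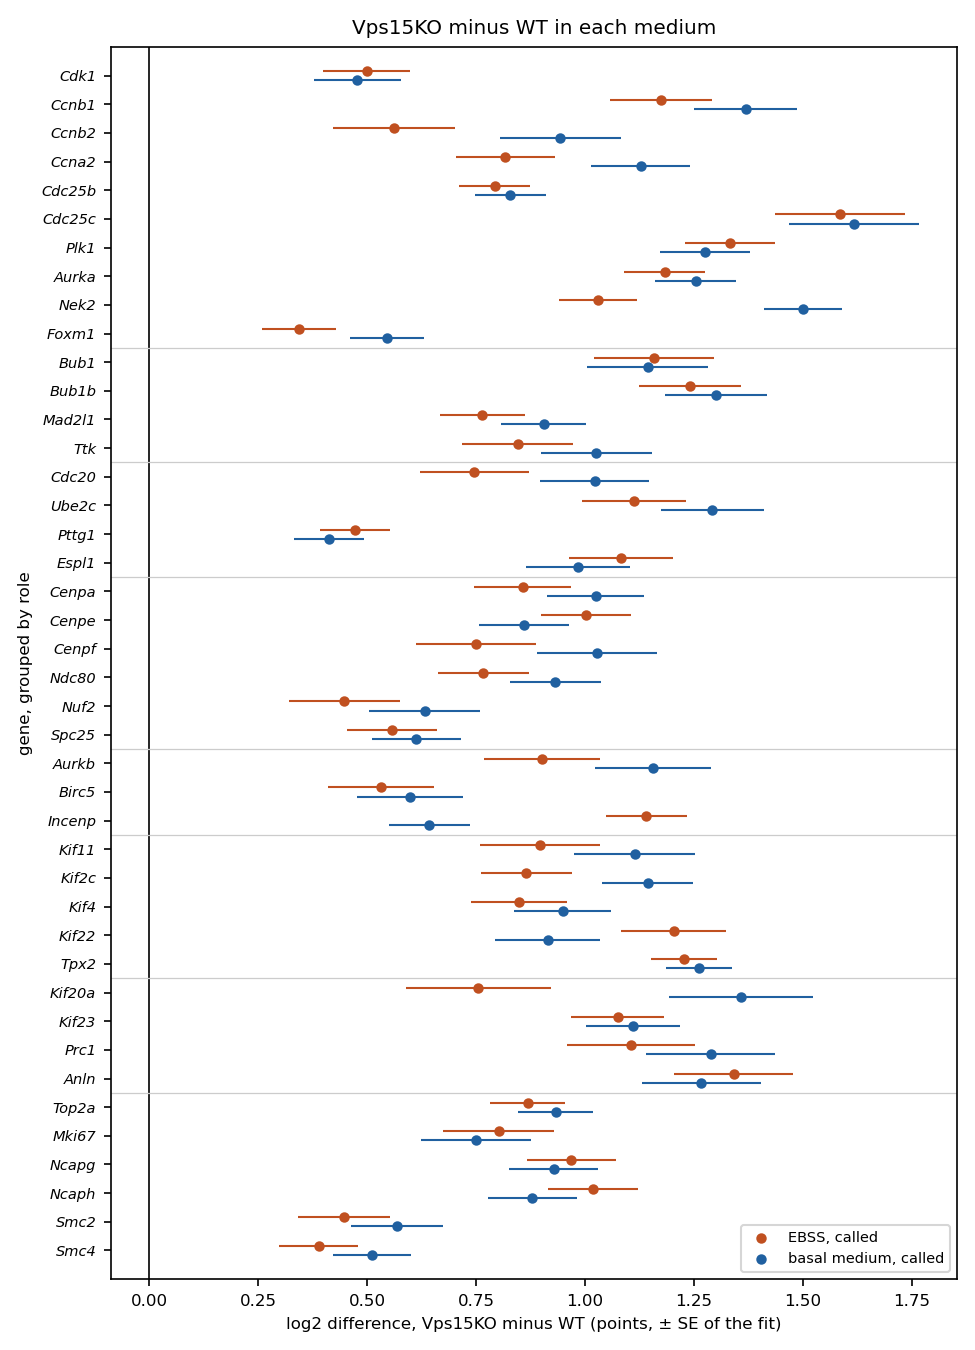
Log2 difference between Vps15KO and WT (x axis) for each of the 42 genes (y axis, grouped by role), in EBSS (orange) and in basal medium (blue), with the standard error of the fit. All points lie to the right of 0, from 0.34 to 1.59 in EBSS and from 0.41 to 1.62 in basal medium, and all are called.

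By promoter, the 26 genes with a CHR match had a median difference of 0.87 in EBSS and 1.02 in basal medium. The 8 genes without one, such as Ccnb1 and Nek2 with some of the largest differences and Pttg1 and Nuf2 with some of the smallest, had medians of 0.88 and 0.87. The 8 genes with no promoter in the table had medians of 0.86 and 1.14. In EBSS the differences ran from 0.45 to 1.34 with a match and 0.45 to 1.17 without. In basal medium they ran from 0.48 to 1.30 with a match and 0.41 to 1.5 without. Other forms of the CHR were not searched, and the window of Pttg1 lay inside the gene. The split therefore cannot show whether genes with the element differ from genes without it.

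Other genes of the same processes were counted in lists of their own. The counts of these lists, here and below, stand against all genes tested. Of those, 29.4% were higher and 27.8% lower in Vps15KO in EBSS, and 29.3% and 29.2% in basal medium. Of 29 other spindle and cytokinesis genes tested, 26 were higher and none lower in Vps15KO in EBSS (median 1.02), and 28 higher and none lower in basal medium (median 1.08). Those with the smallest p were Kif18b (1.43 ± 0.12), Cep55 (1.30 ± 0.12), Ckap2l (1.35 ± 0.12) and Hmmr (1.33 ± 0.12) in EBSS, and Arhgap11a (1.33 ± 0.10), Dlgap5 (1.63 ± 0.13), Hmmr (1.36 ± 0.12) and Cep55 (1.25 ± 0.12) in basal medium. Kif15 was not called in either medium, nor Fam83d and Iqgap3 in EBSS (named after their values were seen). Of 31 other kinetochore and checkpoint genes, 20 were higher and 3 lower in EBSS (median 0.32), and 22 higher and 2 lower in basal medium (median 0.43). Sgo1, shugoshin, which protects centromeric cohesion, was higher by 0.89 in EBSS and 1.20 in basal medium, while Cenpt, a constitutive centromere protein, was lower, with -0.34 in EBSS and -0.66 in basal medium.

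Cohesin and condensin hold and fold chromosomes. Of 15 genes of cohesin and other condensin subunits, 9 were higher and 1 lower in EBSS (median 0.23), and 8 higher and none lower in basal medium (median 0.38), among them Ncapg2 of condensin II (0.66 in EBSS and 1.06 in basal medium). Of 14 other G2/M entry genes, 7 were higher and 4 lower in EBSS (median 0.39), and 8 higher and none lower in basal medium (median 0.25). Ccnf (cyclin F) and Cks2 were higher by 0.89 and 0.85 in EBSS and 1.12 and 1.04 in basal medium, and so was Wee1, the kinase that restrains CDK1 (0.81 and 0.63). Of 17 genes of the anaphase-promoting complex and its partners, 3 were higher (17.6%) and 6 lower (35.3%) in EBSS, with a median of -0.02. In basal medium 6 were higher and 6 lower (35.3% each), with a median of -0.04. Of all genes tested, 29.4% were higher and 27.8% lower in EBSS, and 29.3% and 29.2% in basal medium. Cdc26 and Anapc13, small subunits of the complex, were lower, with -0.67 and -0.77 in EBSS and -0.61 and -0.88 in basal medium. Of 45 DNA replication and S phase genes, 23 were higher and 6 lower in EBSS (median 0.22), and 25 higher and 5 lower in basal medium (median 0.24). Cdt1, Mcm2 and Dbf4, which license or start replication, were higher by 1.22, 0.87 and 1.41 in EBSS and 1.20, 1.09 and 1.25 in basal medium.

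The MuvB complex, the E2F factors and B-Myb regulate the program. Of 22 MuvB, E2F and B-Myb genes, 10 were higher and 1 lower in EBSS (median 0.21), and 15 higher and 1 lower in basal medium (median 0.32). Foxm1 itself, one of the 42, was higher by 0.34 ± 0.08 in EBSS and 0.55 ± 0.08 in basal medium. Mybl2, which encodes B-Myb, was higher by 0.37 ± 0.11 in EBSS (adjusted p = 0.00678) and 0.74 ± 0.11 in basal medium (adjusted p = 1.46e-05). Lin54, the MuvB subunit that contacts the CHR, was higher by 0.80 ± 0.10 in EBSS and 1.17 ± 0.10 in basal medium. Rbl1 (p107), Rb1 and E2f3 were higher by 0.76, 0.58 and 0.82 in EBSS, and Rbl1 and Rb1 by 0.98 and 0.65 in basal medium. The 1 lower gene in each medium, named after its values were seen, was Nfyc, a subunit of NF-Y (-0.43 in EBSS and -0.50 in basal medium).

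**Figure D4:**
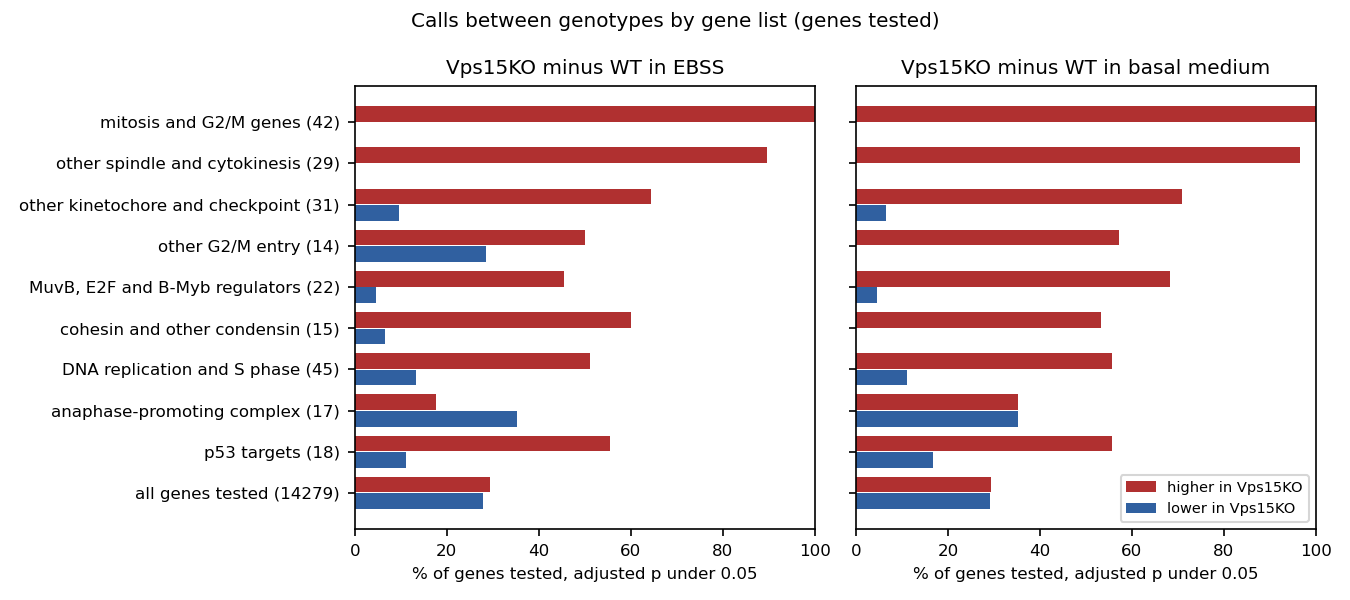
Percentage of the genes tested in each list (number in brackets) that were called higher (red) or lower (blue) in Vps15KO than in WT cells, in EBSS (left) and basal medium (right). All 42 mitosis and G2/M genes were higher in both, as were 26 and 28 of 29 other spindle and cytokinesis genes, while genes of the anaphase-promoting complex were split and of all genes tested 29.4% were higher and 27.8% lower in EBSS, and 29.3% and 29.2% in basal medium.

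After 2 h in EBSS the program changed less, and in each genotype more of the 42 genes fell than rose. In Vps15KO cells 2 of the 42 genes rose and 21 fell, with 19 not called and a median log2 difference of -0.25, from -0.68 to 0.43. Of all genes tested, 52.0% were called in that comparison, as 25.9% rose and 26.1% fell. In WT cells 5 rose and 15 fell, with 22 not called and a median of -0.16, from -0.88 to 0.64, against 62.7% of all genes tested called, 31.4% rising and 31.3% falling. The median over all genes tested was -0.02 in each genotype. The groups did not overlap for 21 of the 42 genes in either genotype, against 63.0% of the genes tested in Vps15KO and 65.2% in WT. No gene changed 2-fold in either. Of the 42, 13 fell in both genotypes, 2 rose in both, Foxm1 and Smc2, and 14 were called in neither. The shares of all genes tested with such joint calls were not counted, so whether these counts are unusual was not tested.

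These counts lean on single libraries. In Vps15KO the number that fell was 12 without Vps15KO basal replicate 3, the highest library for most of these genes, and 24 without Vps15KO basal replicate 1, the lowest, with medians of -0.15 and -0.35. In WT 11 fell and 7 rose without WT EBSS replicate 1, with a median of -0.03, and 12 fell and 6 rose without both WT libraries that stand apart, with a median of -0.07. Without Vps15KO basal replicate 3 the differences in Vps15KO of Ccnb2 (-0.26), Cdc20 (-0.29), Ube2c (-0.23), Espl1 (-0.20), Cenpe (-0.19), Nuf2 (-0.26), Kif22 (-0.30), Tpx2 (-0.20) and Top2a (-0.21) were no longer called, some of them also without another Vps15KO library. Without Vps15KO basal replicate 1 those of Espl1 (-0.48) and Cenpe (-0.42) were over 1.5 times as large. In WT the falls of Plk1 (-0.17), Tpx2 (-0.19), Top2a (-0.17) and Ncaph (-0.21) were not called without WT EBSS replicate 1, and those of Plk1 (-0.21), Top2a (-0.20) and Ncaph (-0.24) not without WT basal replicate 1. The rise of Ndc80 in WT was not called without WT EBSS replicate 2 (0.27) or 3 (0.22).

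The genes that rose in EBSS were few. Foxm1, which encodes the transcription factor that activates late mitosis genes, rose in both genotypes. It had 1148, 1231 and 1248 normalized counts in Vps15KO EBSS and 778, 927 and 965 in Vps15KO basal libraries. In WT cells it had 878, 973 and 992 in EBSS and 660.4, 597 and 543 in basal libraries. The EBSS libraries were above the basal libraries in each genotype, by 0.43 ± 0.08 in Vps15KO (adjusted p = 0.000338) and 0.64 ± 0.08 in WT (adjusted p = 3.61e-06), so that WT EBSS overlapped with Vps15KO basal. Smc2, a condensin core subunit, had 664, 633 and 595 normalized counts in Vps15KO EBSS and 437, 503 and 586 in Vps15KO basal libraries. In WT it had 471, 453 and 440.4 in EBSS and 369, 273 and 363 in basal libraries. The groups were apart in each genotype, and Smc2 rose by 0.30 ± 0.11 in Vps15KO (adjusted p = 0.0225) and 0.42 ± 0.11 in WT (adjusted p = 0.00198). Without Vps15KO basal replicate 1 the rise of Smc2 in Vps15KO was 0.20 and not called, as also without 3 other Vps15KO libraries. Without both WT libraries that stand apart its rise in WT was 0.27, still called. Neither rise of Smc2 was called with length and GC trends removed (0.10 in Vps15KO and 0.12 in WT).

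In WT cells Kif20a, Nek2 and Ndc80 rose as well. Kif20a had 126, 154 and 163 normalized counts in WT EBSS and 110.2, 58.2 and 95.0 in WT basal libraries. In Vps15KO it had 265, 252 and 282 in EBSS and 188, 309 and 298 in basal libraries. The WT groups were apart, with WT basal replicate 2 the lowest value of any gene in the list, and the Vps15KO groups overlapped. Kif20a rose by 0.64 ± 0.17 in WT (adjusted p = 0.00281), and its difference in Vps15KO was 0.03 ± 0.17 (adjusted p = 0.888). Nek2 had 262, 314 and 281 normalized counts in WT EBSS and 202, 166 and 171 in WT basal libraries. In Vps15KO it had 619, 604 and 609 in EBSS and 500.0, 573 and 601 in basal libraries. The EBSS libraries were above the basal ones in both genotypes, narrowly in Vps15KO, and the differences were 0.13 ± 0.09 in Vps15KO (adjusted p = 0.245) and 0.60 ± 0.09 in WT (adjusted p = 1.47e-05). Ndc80 rose by 0.30 ± 0.10 in WT (adjusted p = 0.0166) and had a difference of 0.14 ± 0.10 in Vps15KO (adjusted p = 0.277).

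All 3 genes of the chromosomal passenger complex among the 42 fell in both genotypes. Of all genes tested, 26.1% fell in Vps15KO and 31.3% in WT. The fall of Aurkb in WT was not called with length and GC trends removed (-0.28), nor at adjusted p under 0.01. Aurkb had 359.9, 372 and 394 normalized counts in Vps15KO EBSS and 448, 671 and 773 in Vps15KO basal libraries. In WT it had 179, 214 and 174 in EBSS and 271, 245 and 269 in basal libraries. Every EBSS library was below every basal library of its genotype, and the differences of Aurkb were -0.68 ± 0.13 in Vps15KO (adjusted p = 0.000371), the largest fall there, and -0.42 ± 0.13 in WT (adjusted p = 0.0107). Birc5 had 290.1, 275 and 336 normalized counts in Vps15KO EBSS and 369, 513 and 535 in Vps15KO basal libraries. In WT it had 183, 184 and 232 in EBSS and 303, 322 and 274 in basal libraries. The groups were apart in both, with differences of -0.60 ± 0.12 in Vps15KO (adjusted p = 0.000495) and -0.53 ± 0.12 in WT (adjusted p = 0.000984). Incenp had 740.4, 822 and 792 normalized counts in Vps15KO EBSS and 897, 1092 and 1111 in Vps15KO basal libraries. In WT it had 308, 339.9 and 377 in EBSS and 631, 726 and 597 in basal libraries. Its WT EBSS level stood far below all other groups, and the differences were -0.38 ± 0.09 in Vps15KO (adjusted p = 0.00230) and -0.88 ± 0.09 in WT (adjusted p = 2.21e-07), the largest fall of the 42 genes.

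The role counts below stand against 25.9% of all genes tested rising and 26.1% falling in Vps15KO, and 31.4% rising and 31.3% falling in WT. Mitotic entry was mixed: 1 gene rose and 4 fell in Vps15KO, and 2 rose and 3 fell in WT. Cdk1 fell in both, with differences of -0.41 ± 0.10 in Vps15KO (adjusted p = 0.00247) and -0.43 ± 0.10 in WT (adjusted p = 0.00118), and so did Cdc25b. Ccnb2 and Ccna2 fell in Vps15KO, with differences of -0.42 and -0.41, and were not called in WT (-0.03 and -0.10). Ccnb1, Cdc25c and Aurka were called in neither genotype. Plk1 fell in WT at adjusted p = 0.0470, a call lost under most alternatives, and was not called in Vps15KO. None of the 4 checkpoint genes was called in either genotype, none had an unadjusted p under 0.05, and voom called none either. With length and GC trends removed Mad2l1 changed direction in WT, with -0.24 in place of 0.10, and was called (adjusted p = 0.0205), and in Vps15KO both Mad2l1 (-0.30) and Bub1b (-0.26) were called. Bub1b was also called as falling in Vps15KO under 4 other alternatives, among them library weights and leaving out Vps15KO basal replicate 1, and in WT without WT basal replicate 2.

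Of the anaphase onset genes 4 of 4 were called as falling in Vps15KO, and 1 of 4, Pttg1, without Vps15KO basal replicate 3. In WT 2 of 4 fell. Pttg1 fell in both, with differences of -0.41 ± 0.08 in Vps15KO (adjusted p = 0.000329) and -0.47 ± 0.08 in WT (adjusted p = 5.67e-05). Espl1 had differences of -0.31 in Vps15KO and -0.41 in WT. Cdc20 and Ube2c were called in Vps15KO, with -0.43 and -0.35, and not in WT, with -0.16 and -0.17, and neither interaction was called. Of the 6 kinetochore genes, 5 fell in Vps15KO, or 3 without Vps15KO basal replicate 3 or Vps15KO EBSS replicate 1. In WT 2 fell and 1 rose. Cenpf had differences of -0.54 ± 0.14 in Vps15KO (adjusted p = 0.00332) and -0.26 ± 0.14 in WT (adjusted p = 0.111), and Cenpe and Spc25 fell in both.

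Among spindle genes 3 of 5 fell in Vps15KO, or 1 of 5 without Vps15KO basal replicate 3. In WT 2 of 5 fell, or 1 of 5 without WT EBSS replicate 1. Kif22, a motor that binds chromosome arms, had 410.0, 399 and 456 normalized counts in Vps15KO EBSS and 477, 578 and 621 in Vps15KO basal libraries. In WT it had 128, 196 and 187 in EBSS and 284, 302 and 262 in basal libraries. The groups were apart in each genotype, with differences of -0.38 ± 0.12 in Vps15KO (adjusted p = 0.0139) and -0.67 ± 0.12 in WT (adjusted p = 0.000109). Tpx2 fell in both, Kif2c in Vps15KO, and Kif11 and Kif4 were called in neither. Of the cytokinesis genes none was called in Vps15KO, none there had an unadjusted p under 0.05, and voom called none, while Anln was called as a rise with only the groups compared and without both WT libraries that stand apart (0.21 in each). In WT 1 of the 4, Kif20a, was called. Among chromosome structure genes, Mki67 and Top2a fell in both, with Mki67 at -0.47 ± 0.13 in Vps15KO (adjusted p = 0.00492) and -0.52 ± 0.13 in WT (adjusted p = 0.00168). Ncaph fell in WT, and Ncapg and Smc4 were called in neither.

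**Figure D5:**
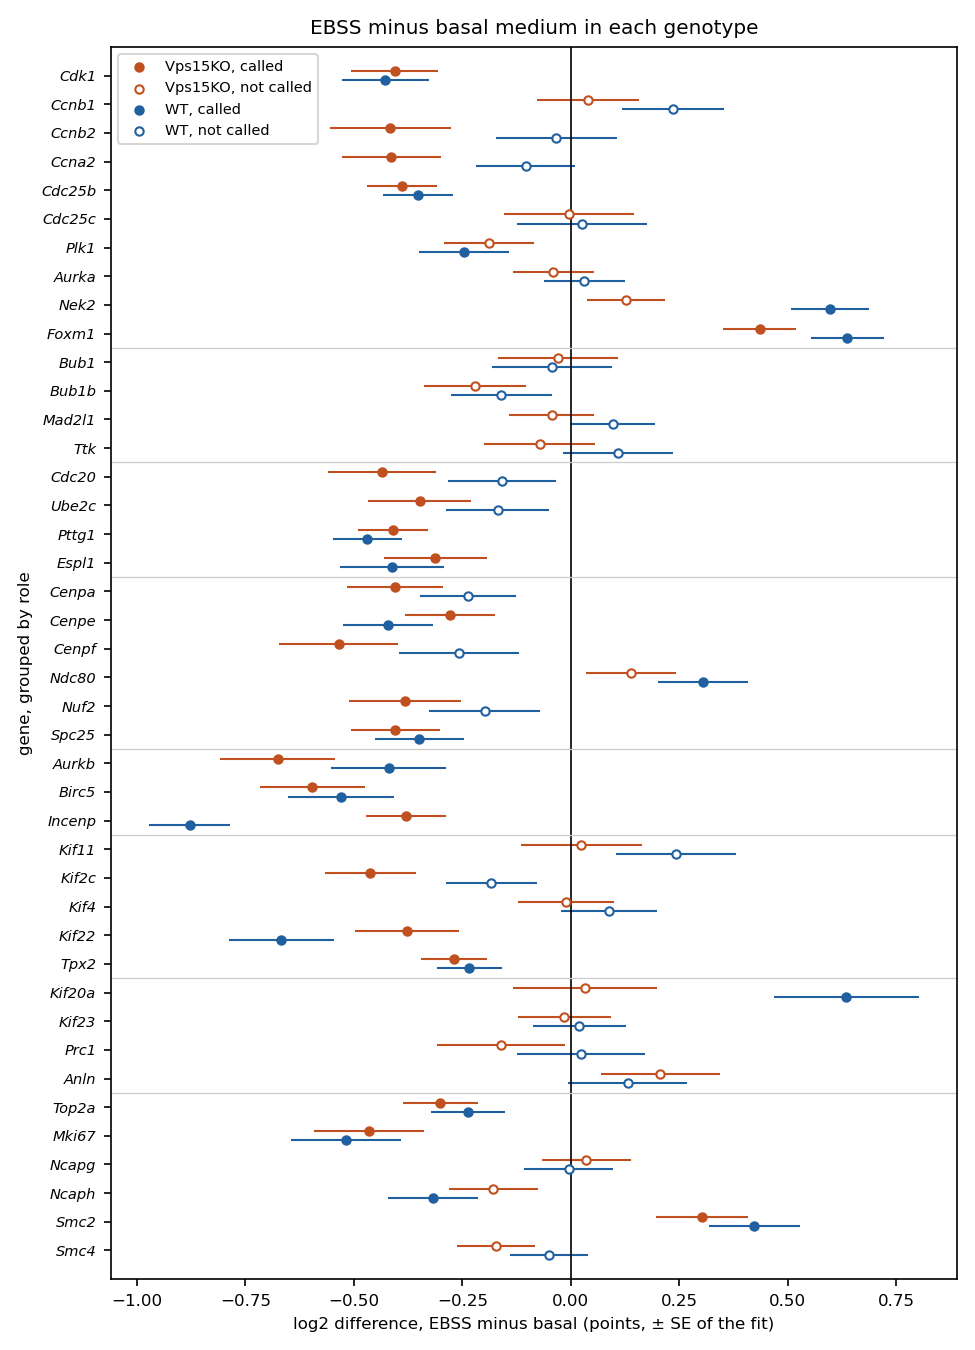
Log2 difference between EBSS and basal medium (x axis) for each of the 42 genes (y axis, grouped by role), in Vps15KO (orange) and in WT cells (blue), with the standard error of the fit. Filled points are called at adjusted p under 0.05, 23 in Vps15KO and 20 in WT, most of them left of 0.

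The EBSS effect differed between the genotypes for 2 of the 42 genes, by the interaction term (the EBSS effect in Vps15KO minus that in WT), against 17.8% of all genes tested. For Incenp the term was 0.50 ± 0.13 (adjusted p = 0.0135), as it fell less in Vps15KO than in WT, and 9.55% of all genes tested were called in that direction. For Nek2 it was negative, -0.47 ± 0.13 (adjusted p = 0.0156), as its rise was called in WT and not in Vps15KO, and 8.24% of all genes tested were called in that direction. The other 40 were not called, with Kif20a the next by p at -0.60 ± 0.23 (adjusted p = 0.0841). Without Vps15KO basal replicate 1 the number called lower was 5, namely Nek2, Kif20a, Ccna2, Cenpf and Aurkb, and it was 2 without WT basal replicate 1 and 0 without Vps15KO basal replicate 3 or WT EBSS replicate 2. The 5 comparisons share libraries, and the interaction is made of the same 4 groups as the rest.

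By group means on the log2 scale, 26 of the 42 genes (61.9%) had the order Vps15KO basal, Vps15KO EBSS, WT basal and WT EBSS, high to low, as did 8.13% of all genes tested. In 7 genes the EBSS mean was above the basal mean in both genotypes, with the Vps15KO means above the WT means, and in another 7 only in WT. Ncapg had its EBSS mean above its basal mean in Vps15KO and below it in WT. Foxm1 was the only one of the 42 whose WT EBSS mean, 947 ± 61.2 normalized counts, exceeded its Vps15KO basal mean, 890.1 ± 98.7 (SD, n = 3).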

How the data were processed

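Poly-A RNA of 12 libraries in 4 groups was sequenced with a dUTP strand-marking protocol, per the labels' protocols. STAR 2.7.10b, featureCounts, DESeq2, limma and mm10 are named in the submitters' processing notes, and whether the counting used strand is not given in the sources used here. The authors deposited log2 values from the variance-stabilizing transformation of DESeq2, named in the table's title, for 32721 genes. A count of 0 has the value 3.83 on this scale, and 2732 genes were at 0 in every library. Differences on this scale are shrunk for low counts. Reversing the transformation gave reads that were whole within 0.001 for all values, with size factors of 0.945 to 1.02, and these give the normalized counts printed.

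Group means were fitted to the deposited log2 values of all 12 libraries with limma 3.58.1 in R 4.3.3 (moderated test with variance trend, two-sided, 8 residual and 10.2 prior degrees of freedom). Tests covered the 14279 genes whose mean exceeded the value of a count of 0 by 1 or more, and p-values were adjusted over them by Benjamini and Hochberg's method in each of 5 comparisons. Calls were made below an adjusted p of 0.05, and "rose", "fell", "higher" and "lower" refer to called genes, or to values that are given. Errors of log2 differences are standard errors of the fit. The fit was tested on simulated counts with 50 genes changed at each fold, far fewer than were called in these data. Of 1.25-fold changes it recovered 32% for the EBSS effect in WT and 42% for the Vps15KO effect in basal medium. Of 2-fold changes it recovered 92% in each, and 5.77% and 5.49% of the calls were false. Levels, lists and promoter motifs were computed with Python 3.11.15, numpy 2.4.6, pandas 2.3.3 and scipy 1.17.1, and figures drawn with matplotlib 3.10.9.

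The 42 genes and the other lists were chosen with earlier results of these data known. Values per library are given for Cdk1, Ccnb1, Plk1, Foxm1, Mki67, Top2a, Cdc20, Bub1, Kif11 and Cenpf and for the 3 largest called rises and falls of each comparison, where there were as many. From each other list up to 4 genes with the smallest p were named, with Cdkn1a and Ccnd1 in every comparison. Near-identical gene copies were not examined. Transcript length and GC content were those of the longest protein-coding GENCODE transcript of each gene, or of the longest of any kind where none was protein-coding. The alternatives tried were other filters, normalizations, variance models and thresholds, a count-based fit, a replicate block and leaving out libraries.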

Additional observations from a re-analysis of the deposited data

Results flagged for a closer look

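The EBSS effect on Incenp and on Nek2 differed between the genotypes by the interaction term of limma's fit. For Incenp the effect in Vps15KO minus that in WT was 0.50 ± 0.13 on the log2 scale (adjusted p = 0.0135). The mean was 785 ± 41.1 normalized counts in Vps15KO EBSS and 1033 ± 118 in Vps15KO basal libraries, and 342 ± 34.7 in WT EBSS and 651 ± 67.0 in WT basal libraries (SD, n = 3). For Nek2 it was -0.47 ± 0.13 (adjusted p = 0.0156), with 611 ± 8.04 in Vps15KO EBSS and 558 ± 52.3 in Vps15KO basal libraries, and 286 ± 26.7 in WT EBSS and 179.9 ± 19.7 in WT basal libraries.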

How the results depend on the processing

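Under 25 alternatives all 42 genes were called higher in Vps15KO in both media, and every median between genotypes stayed positive, from 0.79 to 0.93 in EBSS and 0.89 to 1.13 in basal medium when 1 library was left out. The EBSS counts were less stable. Of the calls, 13 of 23 in Vps15KO, 13 of 20 in WT and none of the 2 interaction calls held under every alternative run. In Vps15KO 1 to 2 rose and 12 to 24 fell with 1 library left out, with medians of -0.35 to -0.15; 1 rose at adjusted p under 0.01 and 1 with length and GC trends removed. Smc2 lost its rise there, and without Vps15KO basal replicate 1 or 2 or Vps15KO EBSS replicate 1 or 2. In WT 4 to 7 rose and 11 to 17 fell, with medians of -0.20 to -0.03. Of the interaction calls, none higher and none lower were left at adjusted p under 0.01; 5 were lower with library weights, 3 without both WT libraries that stand apart, and 0 to 5 with 1 library left out, with medians of -0.20 to -0.01. Nek2 lost its interaction call without Vps15KO basal replicate 3 (adjusted p = 0.0509) and without WT EBSS replicate 2 (adjusted p = 0.0523), and its difference ranged from -0.56 to -0.41; Incenp kept its call except at adjusted p under 0.01, from 0.35 to 0.57. Mad2l1 reversed in WT with length and GC trends removed, to -0.24 (adjusted p = 0.0205). The causes were not tested. Same-numbered Vps15KO and WT libraries had residual correlations of 0.0825 to 0.260 in basal medium and 0.0390 to 0.124 in EBSS. With different numbers these were -0.212 to 0.106 in basal medium and -0.111 to -0.0120 in EBSS. Same-numbered EBSS and basal libraries had -0.155 to -0.0418 in WT and -0.0734 to 0.0125 in Vps15KO. The main fit did not take the numbers as pairs. With a replicate block 42 genes were higher in each medium, 2 rose and 21 fell in Vps15KO, and 5 rose and 16 fell in WT. The interaction then called 1 higher and 1 lower. The interaction could not be fitted with only the groups compared, as it uses all 4. With 3 libraries a group, and standard errors from 0.08 to 0.23, small changes can be missed.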

Other observations

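The counts given here for inhibitors of cyclin-dependent kinases, p53 targets and G1 genes stand against 29.4% of all genes tested higher and 27.8% lower in Vps15KO in EBSS, and 29.3% higher and 29.2% lower in basal medium. Of 6 inhibitors tested, 2 were higher and 3 lower in Vps15KO in EBSS, and 3 higher and 1 lower in basal medium. Cdkn1a, which encodes p21, had 1681 ± 68.1 normalized counts in Vps15KO EBSS and 1008 ± 94.0 in WT EBSS libraries, and 1186 ± 7.34 in Vps15KO basal and 572 ± 40.7 in WT basal libraries (SD, n = 3). In limma's fit Cdkn1a was thus higher along with the mitosis genes, by 0.72 ± 0.07 in EBSS (adjusted p = 1.07e-07) and 1.02 ± 0.07 in basal medium (adjusted p = 1.36e-09). It rose in EBSS in both genotypes, by 0.49 ± 0.07 in Vps15KO and 0.79 ± 0.07 in WT, and the difference between these effects was -0.29 ± 0.10 (adjusted p = 0.0537). Cdkn2c (p18) was lower in Vps15KO, with -0.82 in EBSS and -0.94 in basal medium. Cdkn1b (p27) fell in EBSS in Vps15KO (-0.33 ± 0.09) and rose in WT (0.54 ± 0.09), and the interaction was called (-0.87 ± 0.12, adjusted p = 0.000109). Of 18 p53 target genes tested, Cdkn1a among them, 10 were higher and 2 lower in Vps15KO in EBSS, and 10 higher and 3 lower in basal medium. Plk2 was higher by 1.78 in EBSS and 1.18 in basal medium, while Sesn1 was lower, with -0.94 in EBSS. Btg2, an antiproliferative gene, was higher in Vps15KO in EBSS (0.64 ± 0.09) and lower in basal medium (-1.16 ± 0.09).

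Of 9 G1 cyclin and kinase genes, 3 were higher and 3 lower in Vps15KO in EBSS, and 3 higher and 2 lower in basal medium. Ccne1 (cyclin E1) was higher by 1.14 ± 0.09 in EBSS and 1.14 ± 0.09 in basal medium, and Myc by 1.58 ± 0.07 and 1.20 ± 0.07. Ccnd3 (cyclin D3) was lower, with -0.44 and -0.55. Ccnd1 (cyclin D1) had 5864 ± 281 normalized counts in Vps15KO EBSS and 6780.1 ± 542 in WT EBSS libraries, and 6687 ± 238 in Vps15KO basal and 7192 ± 659 in WT basal libraries. It differed by -0.21 ± 0.07 in EBSS (adjusted p = 0.0221) and -0.10 ± 0.07 in basal medium (adjusted p = 0.248) in limma's fit, and its EBSS effect was -0.19 ± 0.07 in Vps15KO (adjusted p = 0.0377) and -0.08 ± 0.07 in WT (adjusted p = 0.329), with an interaction of -0.11 ± 0.10 (adjusted p = 0.537). In EBSS itself, Ccnd3 and Ccne1 fell in both genotypes (-0.89 and -0.54 in Vps15KO, -1.0 and -0.54 in WT), and Ccne2 rose in both (0.56 in Vps15KO and 0.50 in WT).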
